A study of Homo sapiens with 12 samples.

Results

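The 60 genes described here encode the proteins that carry a cell through mitosis: 8 cyclins, CDK1 and other genes of mitotic entry, 4 further mitotic kinases, 9 genes of the spindle checkpoint and anaphase, 4 subunits of the chromosomal passenger complex, 11 kinesins, 10 genes of the kinetochore and centromere, 7 of spindle assembly and cytokinesis, and 7 of mitotic chromosome structure. They were chosen by name from these roles, without a threshold on any measured value but with earlier results of these data known. The table of counts held 57353 gene names. All 60 passed the filter on low counts, which 12998 genes passed in all. The RNA came from MOLM-13, an established human acute myeloid leukemia (AML) cell line whose FLT3 receptor carries an internal tandem duplication (FLT3-ITD) and signals without ligand, so each group is a sample of 1 line. The cells were treated for 15 hr with vehicle or with 3 nM quizartinib, a small-molecule inhibitor of FLT3, and each treatment was given in RPMI or in conditioned medium of human bone marrow stromal cells (hBMSC-CM), which the study prepared from the stromal line HS-5 and mixed with RPMI. The 4 groups were vehicle in RPMI, quizartinib in RPMI, vehicle in hBMSC-CM and quizartinib in hBMSC-CM, with 3 libraries each. No stromal cells were cultured with the leukemia cells in these groups. The series' design text also names an inhibitor of ATM, but none of the 12 libraries is labelled with that compound.

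As background, cyclin A and cyclin B bind CDK1 and start mitosis once CDC25 phosphatases remove its inhibitory phosphates. Aurora and Polo-like kinases then build the spindle, kinesins move and align the chromosomes, and the kinetochore joins each chromosome to microtubules. The spindle checkpoint holds back the anaphase-promoting complex until every kinetochore is attached, after which separase opens cohesin and the cell divides. Transcription of most of these genes rises late in the cycle. In resting or arrested cells the DREAM complex (the MuvB core with E2F4 and a pocket protein) represses many of them through a promoter element called the cell cycle genes homology region (CHR). In cycling cells the MuvB core binds MYBL2 and FOXM1 in place of the repressors. G1/S genes are repressed chiefly through E2F sites. RNA of these genes in a culture depends both on how many cells are in G2 or mitosis and on how much RNA each of those cells holds, and bulk libraries cannot tell fewer such cells from less RNA per cell.

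Promoters of 52 of the 60 genes were found in the RefSeq table for GRCh38.p14, each covering 250 bases before and 50 bases after the gene's start. The genes with no promoter in the table were FOXM1, AURKA, BUB3, TTK, UBE2C, BIRC5, CENPM and TPX2. The promoters of ZWINT, SPC25 and MAD2L1 are shown because these genes had the largest falls with quizartinib in RPMI among the 52. Those of KIF20A, KIF18A and SMC4 are shown because these genes changed least. Capitals mark, on either strand, the CHR motif TTTGAA and its variant TTCGAA and the CCAAT box and the E2F type sites GCGGGAA or GGCGGGA, with the 2 E2F forms marked as a single stretch where they overlap.
ZWINT, chr10:56361210-56361509, minus strand: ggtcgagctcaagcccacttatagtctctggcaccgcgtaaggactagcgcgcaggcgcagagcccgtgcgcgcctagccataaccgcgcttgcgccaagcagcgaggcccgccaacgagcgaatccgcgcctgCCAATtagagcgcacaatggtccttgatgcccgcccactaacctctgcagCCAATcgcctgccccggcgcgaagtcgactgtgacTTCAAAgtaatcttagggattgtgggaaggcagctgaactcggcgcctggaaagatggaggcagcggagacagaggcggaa
SPC25, chr2:168890381-168890680, minus strand: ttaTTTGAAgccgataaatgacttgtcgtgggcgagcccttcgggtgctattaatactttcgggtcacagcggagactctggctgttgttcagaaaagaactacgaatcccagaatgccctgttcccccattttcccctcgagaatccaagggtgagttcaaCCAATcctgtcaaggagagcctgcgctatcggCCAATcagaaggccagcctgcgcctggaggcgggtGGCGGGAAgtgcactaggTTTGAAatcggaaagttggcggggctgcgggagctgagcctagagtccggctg
MAD2L1, chr4:120066799-120067098, minus strand: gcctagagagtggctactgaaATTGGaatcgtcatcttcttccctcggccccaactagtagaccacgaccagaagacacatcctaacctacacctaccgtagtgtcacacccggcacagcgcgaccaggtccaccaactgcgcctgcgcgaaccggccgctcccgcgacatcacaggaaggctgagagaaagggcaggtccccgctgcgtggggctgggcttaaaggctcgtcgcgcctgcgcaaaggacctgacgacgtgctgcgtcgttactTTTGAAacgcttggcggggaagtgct
KIF20A, chr5:138178862-138179161, plus strand: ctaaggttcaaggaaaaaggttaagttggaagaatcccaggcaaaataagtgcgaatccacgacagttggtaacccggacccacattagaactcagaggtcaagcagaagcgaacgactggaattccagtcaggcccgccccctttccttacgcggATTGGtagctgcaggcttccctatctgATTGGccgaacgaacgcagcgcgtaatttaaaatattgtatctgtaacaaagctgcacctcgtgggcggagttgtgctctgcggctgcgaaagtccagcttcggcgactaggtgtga
KIF18A, chr11:28108107-28108406, minus strand: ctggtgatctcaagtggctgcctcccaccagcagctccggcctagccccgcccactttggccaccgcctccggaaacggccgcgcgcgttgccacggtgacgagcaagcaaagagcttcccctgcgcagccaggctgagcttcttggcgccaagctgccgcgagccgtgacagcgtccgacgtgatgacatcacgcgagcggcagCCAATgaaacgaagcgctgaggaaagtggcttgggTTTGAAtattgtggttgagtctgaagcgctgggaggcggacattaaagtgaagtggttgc
SMC4, chr3:160399400-160399699, plus strand: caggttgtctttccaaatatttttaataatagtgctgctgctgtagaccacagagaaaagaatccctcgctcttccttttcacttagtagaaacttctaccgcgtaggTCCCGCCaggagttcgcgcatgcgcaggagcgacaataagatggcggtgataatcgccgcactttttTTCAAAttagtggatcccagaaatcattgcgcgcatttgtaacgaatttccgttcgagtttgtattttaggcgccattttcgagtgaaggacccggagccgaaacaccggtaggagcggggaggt

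The CHR motif TTTGAA was found in 37 of the 52 promoters (71.2%), against 15.4% of all 27305 promoters of the same length and 1 of 34 promoters (2.94%) of a list of G1/S and replication genes. Of its 47 matches in the mitosis genes, 34 lay within 50 bases of the gene's start (72.3%, against 27.0% of the 4941 matches in all promoters). The CCAAT box was found in 73.1% of the mitosis genes' promoters, 61.8% of the G1/S promoters and 35.7% of all promoters. The E2F type sites were more frequent in G1/S promoters than in those of the mitosis genes, with 32.7% of the mitosis genes' promoters, 67.6% of the G1/S promoters and 18.1% of all. Among the 6 promoters shown, only that of KIF20A lacked the CHR motif, and a match lay near the start in genes with large falls (ZWINT, SPC25, MAD2L1) and in KIF18A, whose change with quizartinib in RPMI did not pass the test. These matches are a description of letters in a window and show no binding.

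Gene counts summed to between 19966546 and 31546104 per library, and levels are given as CPM, a gene's count scaled to a common library size, after TMM scaling, whose factors lay between 0.956 and 1.04. A count of 3, the limit used for no detection, corresponds to 0.0951 to 0.150 CPM, far below every one of the 60 genes. The libraries held RNA of myeloid cells, as labelled: 10 of 11 myeloid markers passed the filter and summed to 1024 to 1073 CPM with vehicle in RPMI, 1430 to 1448 with quizartinib in RPMI, 1384 to 1420 with vehicle in hBMSC-CM and 2051 to 2221 with quizartinib in hBMSC-CM. Of 12 stromal markers only COL1A1 and TAGLN passed, COL3A1, THY1, LUM, DCN and POSTN had a count of 0 in every library, and the 12 summed to 3.18 to 4.24 CPM with vehicle in either medium, 10.98 to 13.6 with quizartinib in RPMI and 6.31 to 6.94 with quizartinib in hBMSC-CM. Mitochondrially encoded RNA made up 0.726% ± 0.0563 (SD, n = 3) of counts with vehicle in RPMI, 1.05% ± 0.0466 with quizartinib in RPMI, 0.511% ± 0.0888 with vehicle in hBMSC-CM and 0.856% ± 0.150 with quizartinib in hBMSC-CM. The myeloid sum and the mitochondrial share moved with the groups, and their part in the results below was not tested. The myeloid markers did not move together. Of the 10 tested, 5 rose and 5 fell with quizartinib in RPMI, and 4 rose and 2 fell in hBMSC-CM. Over all genes tested, 40.1% rose and 39.2% fell in RPMI, and 33.4% rose and 33.7% fell in hBMSC-CM. LYZ alone was at 953 to 1068 CPM with quizartinib in hBMSC-CM.

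Most of the mitosis genes were lower with quizartinib than with vehicle in both media and lower in hBMSC-CM than in RPMI, and their sum was lowest with quizartinib in hBMSC-CM. The summed level was 11578, 11631 and 11656 CPM with vehicle in RPMI and 8686, 8906 and 9129 CPM with quizartinib in RPMI. In hBMSC-CM it was 9976, 10258 and 10400 CPM with vehicle and 7055, 7217 and 7317 CPM with quizartinib. The 4 groups did not overlap, and with 3 libraries a group the exact two-sided permutation test cannot go below p = 0.1 for any pair. By gene, 51 of the 60 had their lowest group mean with quizartinib in hBMSC-CM and 8 with quizartinib in RPMI, while 53 had their highest with vehicle in RPMI. These orders of means were not tested and were not counted over all genes.

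**Figure D1:**
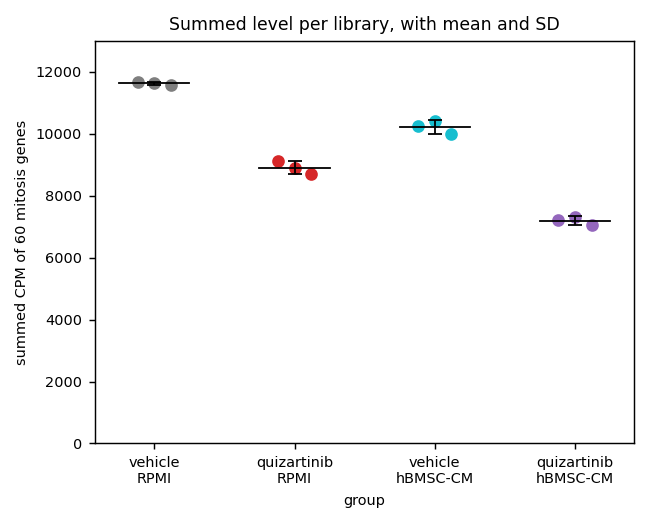
Summed CPM of the 60 mitosis genes (vertical axis, from 0) in each of the 12 libraries (points), by group, with the group mean as a horizontal line and the SD as a bar (n = 3). The quizartinib libraries in hBMSC-CM lie lowest, between 7055 and 7317 CPM, and the vehicle libraries in RPMI highest, between 11578 and 11656 CPM.

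In RPMI, 50 of the 60 genes fell with quizartinib and 4 rose (edgeR quasi-likelihood test, adjusted p under 0.05 over all genes tested), and 6 did not pass the test. Over all 12998 genes, 79.3% passed the same test, 39.2% lower and 40.1% higher, so that the share of mitosis genes that fell exceeded the background and the share that rose did not. The median log2 fold change of the 60 genes was -0.49, against 0.025 over all genes, and 9 of them fell at least 2-fold. In hBMSC-CM, 58 genes fell with quizartinib, none rose and 2 did not pass, against a background of 67.1% in either direction, 33.7% lower and 33.4% higher. Their median was -0.63, with 3 genes at least 2-fold lower. The 4 genes that rose in RPMI were CDC25B, NEK2, NCAPD2 and CENPF. The 6 that did not pass there were CCNB2, CDC25C, KIF18A, KIF20A, CENPE and SMC4, and all 6 were lower with quizartinib in hBMSC-CM. Calls of 50 genes were lower in both media.

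Between media, 45 of the 60 genes were lower in treated cells in hBMSC-CM than in treated cells in RPMI, 5 were higher and 10 did not pass, with a median log2 difference of -0.30. The background in this comparison was 69.8%, with 34.3% of all genes lower and 35.5% higher. With vehicle, 40 genes were lower in hBMSC-CM, none was higher and 20 did not pass, with a median of -0.18, against a background of 32.1%, 15.5% lower and 16.6% higher. The interaction, the log2 response to quizartinib in hBMSC-CM minus that in RPMI, passed the test for 27 genes, 18 negative and 9 positive, against 45.2% of all genes, 19.2% negative and 26.1% positive, so that the share of mitosis genes was near the background. Without the filter on low counts 6 were negative and 9 positive. These comparisons share libraries and are not independent of each other. All of the counts are levels relative to the rest of each library's RNA.

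**Figure D2:**
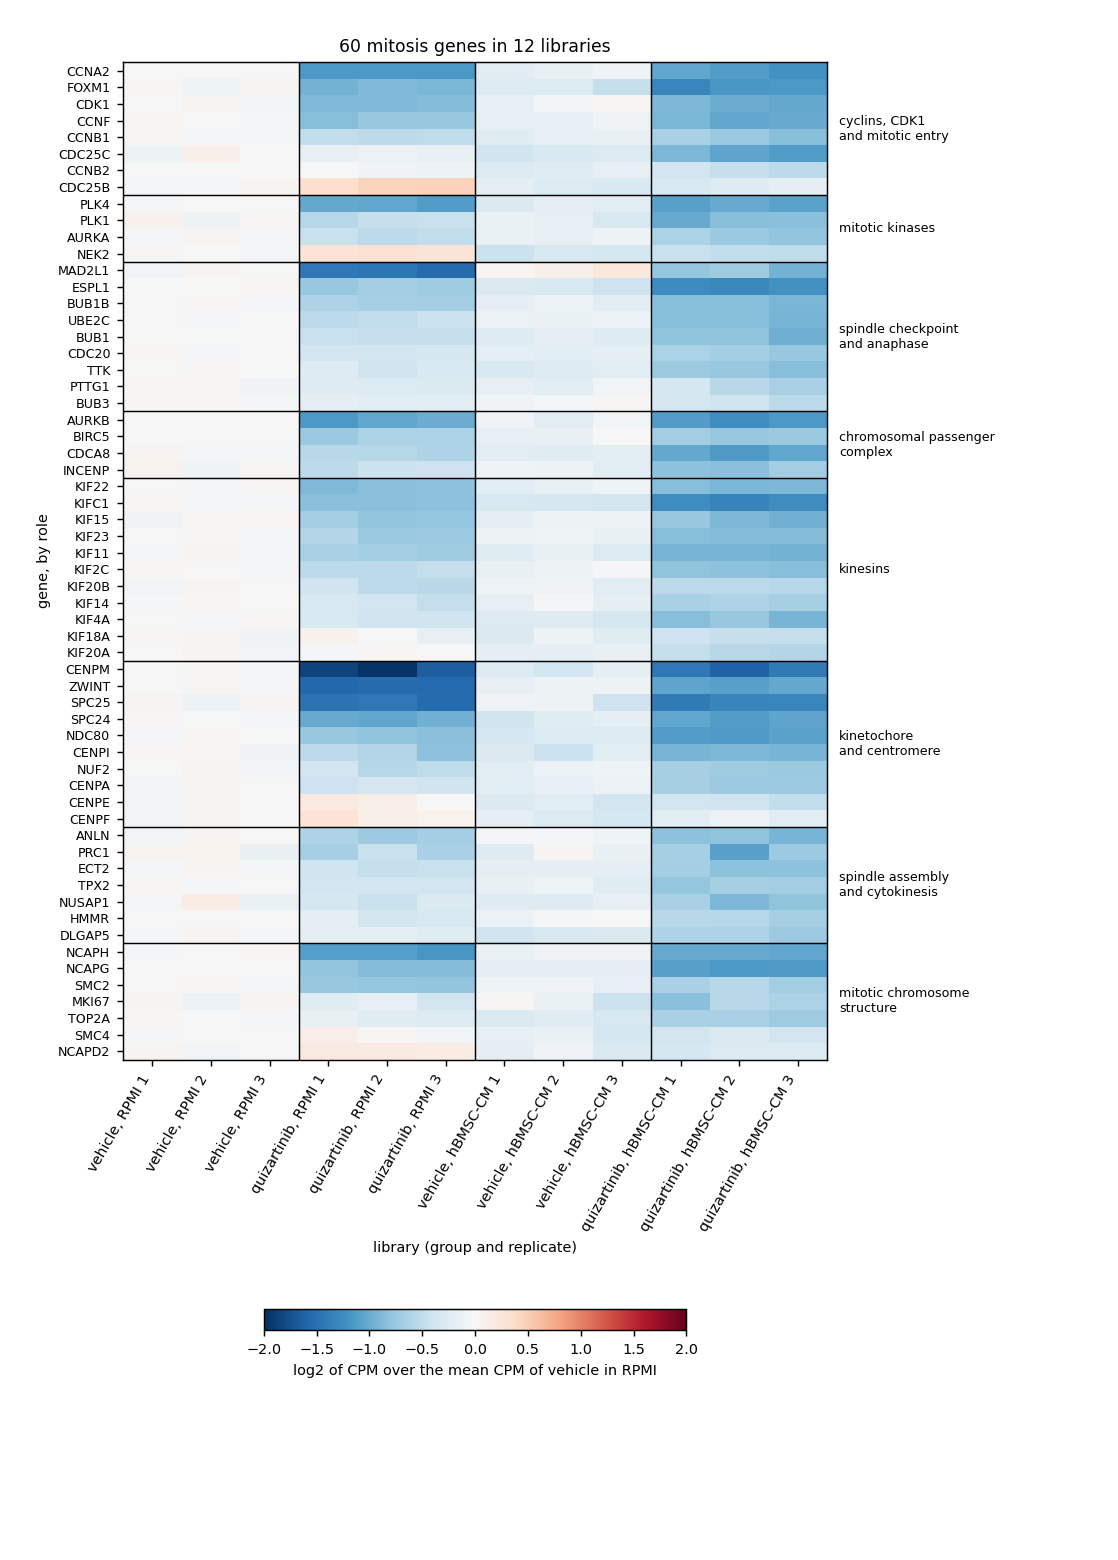
Level of each of the 60 mitosis genes (rows, grouped by role and ordered within a role by the change with quizartinib in RPMI) in each of the 12 libraries (columns), as the log2 ratio of CPM to the mean of vehicle in RPMI. Blue is lower and red higher, and most rows are darkest in the quizartinib libraries, with CENPM, ZWINT and MAD2L1 lower in RPMI than in hBMSC-CM and CDC25B, NEK2 and CDC25C the other way round.

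Of the 8 cyclins, CDK1 and genes of mitotic entry, 5 fell with quizartinib in RPMI (median log2 fold change -0.65) and 7 in hBMSC-CM (median -0.77). CCNA2, the cyclin of S phase and early mitosis, was measured at 337, 337 and 337 CPM with vehicle in RPMI, 152, 153 and 152 CPM with quizartinib in RPMI, 292, 304 and 322 CPM with vehicle in hBMSC-CM and 165, 155 and 146 CPM with quizartinib in hBMSC-CM. Vehicle libraries lay above quizartinib libraries in each medium with no overlap, and the quizartinib libraries of the 2 media overlapped. The log2 fold change was -1.15 ± 0.0465 (SE, edgeR adjusted p = 2.35e-15) in RPMI, a 2.21-fold fall, and -0.98 ± 0.0465 (SE, edgeR adjusted p = 2.24e-13) in hBMSC-CM. FOXM1, the transcription factor of G2/M genes, fell by a similar amount in both media, with log2 fold changes of -0.91 ± 0.0561 and -0.87 ± 0.0578, as did CDK1 (-0.88 ± 0.0502 and -0.91 ± 0.0508), CCNF, the cyclin of an SCF ubiquitin ligase (-0.79 ± 0.0462 and -0.85 ± 0.0467), and CCNB1 (-0.51 ± 0.0478 and -0.56 ± 0.0484), where the interaction did not pass the test for any of the 4.

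The second B-type cyclin, CCNB2, stood at 146, 146 and 144 CPM with vehicle in RPMI, 145, 139 and 136 CPM with quizartinib in RPMI, 119.7, 123 and 129.9 CPM with vehicle in hBMSC-CM and 112, 106 and 101 CPM with quizartinib in hBMSC-CM. Its quizartinib and vehicle libraries overlapped in RPMI, while in hBMSC-CM every quizartinib library was below every vehicle library. The log2 fold changes were -0.051 ± 0.0449 (SE, edgeR adjusted p = 0.297) in RPMI and -0.22 ± 0.0459 (SE, edgeR adjusted p = 0.000242) in hBMSC-CM. CDC25C, a phosphatase that activates CDK1, was at 22.1, 25.4 and 23.7 CPM with vehicle in RPMI, 21.1, 21.9 and 21.1 CPM with quizartinib in RPMI, 18.0, 19.2 and 19.6 CPM with vehicle in hBMSC-CM and 12.7, 11.5 and 10.9 CPM with quizartinib in hBMSC-CM. The 2 RPMI groups lay close together without overlap, and the 3 libraries with quizartinib in hBMSC-CM lay well below all others. Its log2 fold change was -0.15 ± 0.0683 (SE, edgeR adjusted p = 0.0509) in RPMI, just short of the threshold and past it in 9 of the 20 alternatives, and -0.68 ± 0.0766 (SE, edgeR adjusted p = 1.1e-07) in hBMSC-CM. With quizartinib, CDC25C was 1.82-fold lower in hBMSC-CM than in RPMI, and its interaction of -0.54 ± 0.103 (SE, edgeR adjusted p = 0.000233) was the most negative of the 60 genes.

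CDC25B, a related phosphatase that acts at the start of mitosis, had the opposite sign in RPMI. It was counted at 49.9, 50.3 and 53.0 CPM with vehicle in RPMI, 64.8, 69.6 and 70.3 CPM with quizartinib in RPMI, 44.7, 42.1 and 41.2 CPM with vehicle in hBMSC-CM and 41.0, 42.5 and 44.5 CPM with quizartinib in hBMSC-CM. The quizartinib libraries in RPMI were the highest of all 12, and the 2 groups in hBMSC-CM overlapped. It rose 1.34-fold in RPMI (log2 fold change 0.42 ± 0.0510, edgeR adjusted p = 1.86e-07) and had a log2 fold change of -0.0047 ± 0.0538 (SE, edgeR adjusted p = 0.945) in hBMSC-CM, with a 95% interval of -0.13 to 0.12. The interaction was -0.42 ± 0.0741 (SE, edgeR adjusted p = 8.86e-05).

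All 4 further mitotic kinases were lower in vehicle-treated cells in hBMSC-CM than in those in RPMI. PLK4, the kinase of centriole duplication, was at 121, 123 and 123 CPM with vehicle in RPMI, 60.1, 59.8 and 56.4 CPM with quizartinib in RPMI, 99.5, 107 and 106 CPM with vehicle in hBMSC-CM and 57.4, 60.7 and 58.3 CPM with quizartinib in hBMSC-CM. The quizartinib libraries of both media fell in the same range, below all vehicle libraries. PLK4 fell 2.08-fold in RPMI (log2 fold change -1.05 ± 0.0437, edgeR adjusted p = 3.41e-15) and 1.77-fold in hBMSC-CM (log2 fold change -0.82 ± 0.0441, edgeR adjusted p = 1.44e-12). NEK2, a kinase of centrosome separation, was at 65.4, 63.8 and 62.9 CPM with vehicle in RPMI, 77.8, 79.4 and 76.4 CPM with quizartinib in RPMI, 47.6, 51.6 and 50.4 CPM with vehicle in hBMSC-CM and 47.0, 45.7 and 44.8 CPM with quizartinib in hBMSC-CM. Quizartinib libraries were the highest in RPMI and the lowest in hBMSC-CM, where they were close to the vehicle libraries. The log2 fold change was 0.28 ± 0.0444 (SE, edgeR adjusted p = 6.46e-06) in RPMI and -0.12 ± 0.0471 (SE, edgeR adjusted p = 0.0323) in hBMSC-CM, and the latter did not pass the test with upper-quartile or library-size scaling, in a fit of only the groups compared, or without any of 4 libraries (quizartinib in hBMSC-CM replicate 2 or 3, vehicle in hBMSC-CM replicate 2 or 3). With quizartinib, NEK2 was 1.70-fold lower in hBMSC-CM than in RPMI (log2 fold change -0.76 ± 0.0456, edgeR adjusted p = 4.19e-12). PLK1 and AURKA fell moderately in both media, PLK1 with log2 fold changes of -0.49 ± 0.0588 and -0.70 ± 0.0601 and AURKA of -0.49 ± 0.0450 and -0.58 ± 0.0458 in RPMI and hBMSC-CM respectively.

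All 9 genes of the spindle checkpoint and anaphase fell with quizartinib in both media. MAD2L1, the checkpoint protein that binds CDC20, was at 101, 109 and 105 CPM with vehicle in RPMI, 38.8, 38.6 and 36.1 CPM with quizartinib in RPMI, 107, 113 and 122 CPM with vehicle in hBMSC-CM and 61.8, 64.1 and 54.4 CPM with quizartinib in hBMSC-CM. In RPMI the quizartinib libraries lay far below the vehicle libraries, and in hBMSC-CM they lay between these levels, with no overlap. The log2 fold change was -1.47 ± 0.0606 (SE, edgeR adjusted p = 3.18e-15) in RPMI, a 2.77-fold fall, and -0.92 ± 0.0584 (SE, edgeR adjusted p = 1.84e-11) in hBMSC-CM, a 1.90-fold fall. With quizartinib MAD2L1 was 1.59-fold higher in hBMSC-CM (log2 fold change 0.67 ± 0.0623, edgeR adjusted p = 5.91e-09), and its interaction was 0.55 ± 0.0839 (SE, edgeR adjusted p = 1.85e-05).

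The other 8 genes of this role did not share that pattern, since all 8 were lower in treated cells in hBMSC-CM than in treated cells in RPMI. The log2 differences were -0.39 ± 0.0465 for the checkpoint kinase BUB1, -0.21 ± 0.0418 for its relative BUB1B, -0.21 ± 0.0466 for their partner BUB3 and -0.45 ± 0.0468 for the checkpoint kinase TTK. They were -0.32 ± 0.0413 for CDC20, which activates the anaphase-promoting complex, -0.40 ± 0.0514 for its ubiquitin-conjugating enzyme UBE2C, -0.24 ± 0.0609 for securin (PTTG1) and -0.54 ± 0.0467 for separase (ESPL1). ESPL1 had the largest fall with quizartinib among these 8, from 99.5 ± 0.976 CPM to 60.6 ± 1.35 CPM (SD, n = 3) in RPMI and from 79.0 ± 3.59 CPM to 41.7 ± 1.26 CPM in hBMSC-CM. UBE2C, ESPL1, TTK and BUB3 had a negative interaction that passed the test, and not without the filter on low counts.

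The 4 subunits of the chromosomal passenger complex fell in both media, with medians of -0.63 in RPMI and -0.74 in hBMSC-CM. AURKB, its kinase, was at 79.9, 80.0 and 78.9 CPM with vehicle in RPMI, 35.7, 38.6 and 39.9 CPM with quizartinib in RPMI, 76.2, 68.5 and 76.7 CPM with vehicle in hBMSC-CM and 36.7, 33.6 and 35.9 CPM with quizartinib in hBMSC-CM. Quizartinib libraries lay far below vehicle libraries in each medium, and the quizartinib libraries of the 2 media overlapped. The log2 fold changes were -1.07 ± 0.0546 (SE, edgeR adjusted p = 1.24e-13) in RPMI and -1.06 ± 0.0555 (SE, edgeR adjusted p = 9.83e-13) in hBMSC-CM, and the interaction was 0.0066 ± 0.0779 with a 95% interval of -0.17 to 0.19. BIRC5 (survivin) had log2 fold changes of -0.67 ± 0.0470 and -0.62 ± 0.0474. CDCA8 (borealin) and INCENP, the scaffold, fell more in hBMSC-CM, with -0.58 ± 0.0436 in RPMI against -0.84 ± 0.0453 for CDCA8 and -0.46 ± 0.0512 against -0.65 ± 0.0519 for INCENP, whose interaction did not pass the test in 10 of the 19 alternatives. The interaction of CDCA8 did not pass without the filter on low counts.

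Among the 11 kinesins, 9 fell with quizartinib in RPMI and all 11 in hBMSC-CM, with medians of -0.51 and -0.72. KIF22, a chromosome-bound kinesin, was at 193, 192 and 197 CPM with vehicle in RPMI, 106, 108 and 110.4 CPM with quizartinib in RPMI, 166, 175 and 184 CPM with vehicle in hBMSC-CM and 108, 103 and 104 CPM with quizartinib in hBMSC-CM. The quizartinib libraries of the 2 media overlapped and lay below all vehicle libraries. Its log2 fold changes were -0.84 ± 0.0427 (SE, edgeR adjusted p = 1.01e-13) in RPMI and -0.74 ± 0.0430 (SE, edgeR adjusted p = 5.2e-12) in hBMSC-CM. KIF15, which keeps the spindle bipolar, was at 118, 125 and 127 CPM with vehicle in RPMI, 76.9, 71.4 and 72.3 CPM with quizartinib in RPMI, 109, 115 and 115 CPM with vehicle in hBMSC-CM and 72.5, 66.4 and 62.9 CPM with quizartinib in hBMSC-CM. In each medium the groups were separated by treatment, with log2 fold changes of -0.74 ± 0.0508 (SE, edgeR adjusted p = 1.73e-11) in RPMI and -0.74 ± 0.0515 (SE, edgeR adjusted p = 7.95e-11) in hBMSC-CM. KIF11, the main motor of spindle bipolarity, and KIF23, of the central spindle, had log2 fold changes of -0.69 ± 0.0423 and -0.72 ± 0.0427 for KIF11 and -0.69 ± 0.0445 and -0.75 ± 0.0453 for KIF23. KIFC1, a minus-end directed motor, had the largest fall of the kinesins in hBMSC-CM, from 191 ± 3.45 CPM to 100.2 ± 3.99 CPM (SD, n = 3).

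The 2 kinesins that did not pass the test in RPMI were KIF20A and KIF18A. KIF20A, which carries the passenger complex to the central spindle in anaphase, was at 179, 184 and 170.2 CPM with vehicle in RPMI, 174, 180.4 and 177 CPM with quizartinib in RPMI, 156, 156 and 159 CPM with vehicle in hBMSC-CM and 127, 121 and 118 CPM with quizartinib in hBMSC-CM. Quizartinib and vehicle libraries overlapped in RPMI and did not in hBMSC-CM, where quizartinib libraries were the lowest of the 12. Its log2 fold change was -0.0054 ± 0.0414 (SE, edgeR adjusted p = 0.909) in RPMI, where upper-quartile scaling gave a small rise of 0.096 (adjusted p = 0.0376), and -0.36 ± 0.0422 (SE, edgeR adjusted p = 1.99e-07) in hBMSC-CM. The interaction was -0.36 ± 0.0591 (SE, edgeR adjusted p = 4.66e-05). KIF18A, which aligns chromosomes at the metaphase plate, was at 26.1, 26.4 and 24.3 CPM with vehicle in RPMI, 27.2, 25.4 and 22.8 CPM with quizartinib in RPMI, 20.9, 23.8 and 21.7 CPM with vehicle in hBMSC-CM and 19.3, 18.5 and 18.4 CPM with quizartinib in hBMSC-CM. The RPMI groups overlapped, and the 3 quizartinib libraries in hBMSC-CM were the lowest. The log2 fold change was -0.024 ± 0.0682 (SE, edgeR adjusted p = 0.756) in RPMI and -0.23 ± 0.0726 (SE, edgeR adjusted p = 0.00765) in hBMSC-CM, a call lost with upper-quartile or library-size scaling. The interaction was -0.21 ± 0.0996 (SE, edgeR adjusted p = 0.0922), and it passed the test without quizartinib in RPMI replicate 3.

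The 10 genes of the kinetochore and centromere held both the largest falls of the 60 and some of the smallest changes. CENPM, an inner kinetochore subunit, was at 34.4, 35.3 and 34.2 CPM with vehicle in RPMI, 9.62, 8.86 and 11.1 CPM with quizartinib in RPMI, 28.6, 26.4 and 30.6 CPM with vehicle in hBMSC-CM and 12.8, 11.3 and 13.0 CPM with quizartinib in hBMSC-CM. With quizartinib the RPMI libraries were the lowest of the 12 and the hBMSC-CM libraries lay just above them with no overlap, although with vehicle hBMSC-CM was the lower medium. It fell 3.54-fold in RPMI (log2 fold change -1.82 ± 0.0789, edgeR adjusted p = 6.96e-15) and 2.30-fold in hBMSC-CM (log2 fold change -1.20 ± 0.0782, edgeR adjusted p = 2.77e-11), and its interaction, 0.62 ± 0.113 (SE, edgeR adjusted p = 0.000134), was the most positive of the 60 genes. ZWINT, which links the outer kinetochore to checkpoint proteins, was at 229, 230.4 and 223 CPM with vehicle in RPMI, 76.8, 78.5 and 77.8 CPM with quizartinib in RPMI, 204, 211 and 213 CPM with vehicle in hBMSC-CM and 109, 107 and 112 CPM with quizartinib in hBMSC-CM. The order of the groups was that of CENPM, again without overlap. ZWINT fell 2.93-fold in RPMI (log2 fold change -1.55 ± 0.0396, edgeR adjusted p = 1.24e-18) and 1.91-fold in hBMSC-CM (log2 fold change -0.94 ± 0.0388, edgeR adjusted p = 2.86e-14), and was 1.41-fold higher in treated cells in hBMSC-CM than in those in RPMI (log2 fold change 0.49 ± 0.0400, edgeR adjusted p = 6.56e-10).

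The 4 subunits of the NDC80 complex, which grips microtubules at the outer kinetochore, differed in size of response. NDC80 was at 92.4, 95.2 and 94.2 CPM with vehicle in RPMI, 55.7, 53.9 and 52.8 CPM with quizartinib in RPMI, 74.4, 77.4 and 78.1 CPM with vehicle in hBMSC-CM and 43.5, 42.6 and 44.8 CPM with quizartinib in hBMSC-CM. All 4 groups were separate, in the order vehicle in RPMI, vehicle in hBMSC-CM, quizartinib in RPMI and quizartinib in hBMSC-CM, with log2 fold changes of -0.79 ± 0.0427 (SE, edgeR adjusted p = 2.88e-13) and -0.81 ± 0.0441 (SE, edgeR adjusted p = 1.76e-12) in RPMI and hBMSC-CM and an interaction of -0.018 ± 0.0613 (95% interval -0.16 to 0.12). SPC25 fell from 33.3 ± 2.18 CPM to 11.9 ± 0.449 CPM in RPMI and from 29.2 ± 3.64 CPM to 13.1 ± 0.529 CPM (SD, n = 3) in hBMSC-CM, log2 fold changes of -1.48 ± 0.0827 and -1.16 ± 0.0834. SPC24 had log2 fold changes of -1.01 ± 0.0499 and -0.79 ± 0.0508, and NUF2 of -0.48 ± 0.0544 and -0.56 ± 0.0557. The fall in RPMI was thus larger for SPC24 and SPC25 than for NDC80 and NUF2, a difference between genes that was not tested.

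CENPE, a kinesin of the kinetochore, was at 216, 233 and 226 CPM with vehicle in RPMI, 257, 245 and 225 CPM with quizartinib in RPMI, 184, 192 and 173 CPM with vehicle in hBMSC-CM and 172, 171 and 159.6 CPM with quizartinib in hBMSC-CM. The RPMI groups overlapped, and in hBMSC-CM the quizartinib libraries lay just below the vehicle libraries. The log2 fold change was 0.11 ± 0.0518 (SE, edgeR adjusted p = 0.0622) in RPMI and -0.13 ± 0.0527 (SE, edgeR adjusted p = 0.0412) in hBMSC-CM. The call in hBMSC-CM was lost with upper-quartile or library-size scaling, in a fit of only the groups compared, or without any of 4 libraries (vehicle in hBMSC-CM replicate 1 or 2, quizartinib in hBMSC-CM replicate 2 or 3), and the value in RPMI passed the test, as a rise, in 8 of the 20 alternatives. CENPF, a very large kinetochore protein, rose slightly in RPMI, from 743 ± 26.3 CPM to 834 ± 61.3 CPM (log2 fold change 0.17 ± 0.0549, edgeR adjusted p = 0.00895), a call lost without quizartinib in RPMI replicate 1 or without the filter on low counts, and had a log2 fold change of 0.090 ± 0.0551 (SE, edgeR adjusted p = 0.158) in hBMSC-CM, which passed the test as a rise with upper-quartile or library-size scaling or without vehicle in hBMSC-CM replicate 1. The remaining 2 genes of this role fell in both media, the centromeric histone CENPA with -0.38 ± 0.0542 and -0.54 ± 0.0565 and the inner kinetochore gene CENPI with -0.63 ± 0.0694 and -0.61 ± 0.0734.

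All 7 genes of spindle assembly and cytokinesis fell in both media, and in each of the 7 the log2 fold change was more negative in hBMSC-CM. ANLN, a scaffold of the contractile ring, was at 184, 197 and 189.9 CPM with vehicle in RPMI, 124, 116 and 119 CPM with quizartinib in RPMI, 186, 184 and 178 CPM with vehicle in hBMSC-CM and 107, 109 and 99.9 CPM with quizartinib in hBMSC-CM. Quizartinib libraries were below vehicle libraries in each medium, and those in hBMSC-CM were the lowest. The log2 fold changes were -0.67 ± 0.0443 (SE, edgeR adjusted p = 9.93e-12) in RPMI and -0.79 ± 0.0447 (SE, edgeR adjusted p = 2.95e-12) in hBMSC-CM. The others ranged in RPMI from -0.58 ± 0.115 for PRC1, which bundles antiparallel microtubules, to -0.21 ± 0.0449 for DLGAP5, of the kinetochore fibres. In hBMSC-CM they ranged from -0.68 ± 0.122 for PRC1 to -0.33 ± 0.0458 for DLGAP5. TPX2, which activates AURKA on the spindle, had -0.38 ± 0.0446 and -0.55 ± 0.0450, and HMMR, a spindle pole protein, -0.30 ± 0.0475 and -0.55 ± 0.0481, and these were the only 2 of the 7 whose interaction passed the test. TPX2 lost its call when any of 4 libraries was left out, and neither gene kept the call without the filter on low counts.

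Of the 7 genes of mitotic chromosome structure, 5 fell in RPMI and all 7 in hBMSC-CM. NCAPH, the kleisin subunit of condensin I, was at 127, 129 and 131 CPM with vehicle in RPMI, 60.1, 60.5 and 57.6 CPM with quizartinib in RPMI, 118, 123 and 123 CPM with vehicle in hBMSC-CM and 64.2, 64.7 and 63.2 CPM with quizartinib in hBMSC-CM. The quizartinib libraries of both media lay far below the vehicle libraries, slightly higher in hBMSC-CM. The log2 fold changes were -1.12 ± 0.0405 (SE, edgeR adjusted p = 3.39e-16) in RPMI and -0.92 ± 0.0406 (SE, edgeR adjusted p = 6.95e-14) in hBMSC-CM. NCAPD2, another condensin I subunit, was at 466, 433 and 453 CPM with vehicle in RPMI, 510.4, 511 and 499.8 CPM with quizartinib in RPMI, 395, 429.6 and 370.1 CPM with vehicle in hBMSC-CM and 355, 373 and 371 CPM with quizartinib in hBMSC-CM. In RPMI the quizartinib libraries were above the vehicle libraries, and in hBMSC-CM the groups overlapped. Its log2 fold change was 0.17 ± 0.0487 (SE, edgeR adjusted p = 0.00328) in RPMI, a rise that did not pass the test without the filter on low counts, and -0.12 ± 0.0490 (SE, edgeR adjusted p = 0.0358) in hBMSC-CM, a call lost with upper-quartile or library-size scaling, in a fit of only the groups compared, or without any of 4 libraries (vehicle in hBMSC-CM replicate 1 or 2, quizartinib in hBMSC-CM replicate 1 or 3).

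SMC4, which with SMC2 forms the core of both condensins, was at 445, 459 and 459 CPM with vehicle in RPMI, 498, 459 and 437 CPM with quizartinib in RPMI, 405, 414 and 356 CPM with vehicle in hBMSC-CM and 352, 371 and 352 CPM with quizartinib in hBMSC-CM. Groups overlapped between treatments in both media. The log2 fold changes were 0.033 ± 0.0542 (SE, edgeR adjusted p = 0.581) in RPMI and -0.13 ± 0.0546 (SE, edgeR adjusted p = 0.0414) in hBMSC-CM, the latter lost in the same alternatives as for NCAPD2, while upper-quartile and library-size scaling each gave a small rise in RPMI that passed the test. SMC2 fell in both media, from 285 ± 8.35 CPM to 167 ± 1.66 CPM in RPMI and from 265 ± 9.80 CPM to 183 ± 8.65 CPM (SD, n = 3) in hBMSC-CM, and NCAPG, the third condensin I gene, had log2 fold changes of -0.84 ± 0.0383 and -0.94 ± 0.0390. Of the condensin I subunits measured, NCAPG and NCAPH thus fell in RPMI and NCAPD2 rose. The proliferation marker MKI67 had log2 fold changes of -0.26 ± 0.0870 (SE, edgeR adjusted p = 0.0106) in RPMI, a call lost with either of these scalings and without quizartinib in RPMI replicate 3 or vehicle in RPMI replicate 3, and -0.51 ± 0.0875 (SE, edgeR adjusted p = 3.46e-05) in hBMSC-CM. TOP2A, which untangles sister chromatids, had -0.22 ± 0.0444 and -0.39 ± 0.0445.

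**Figure D3:**
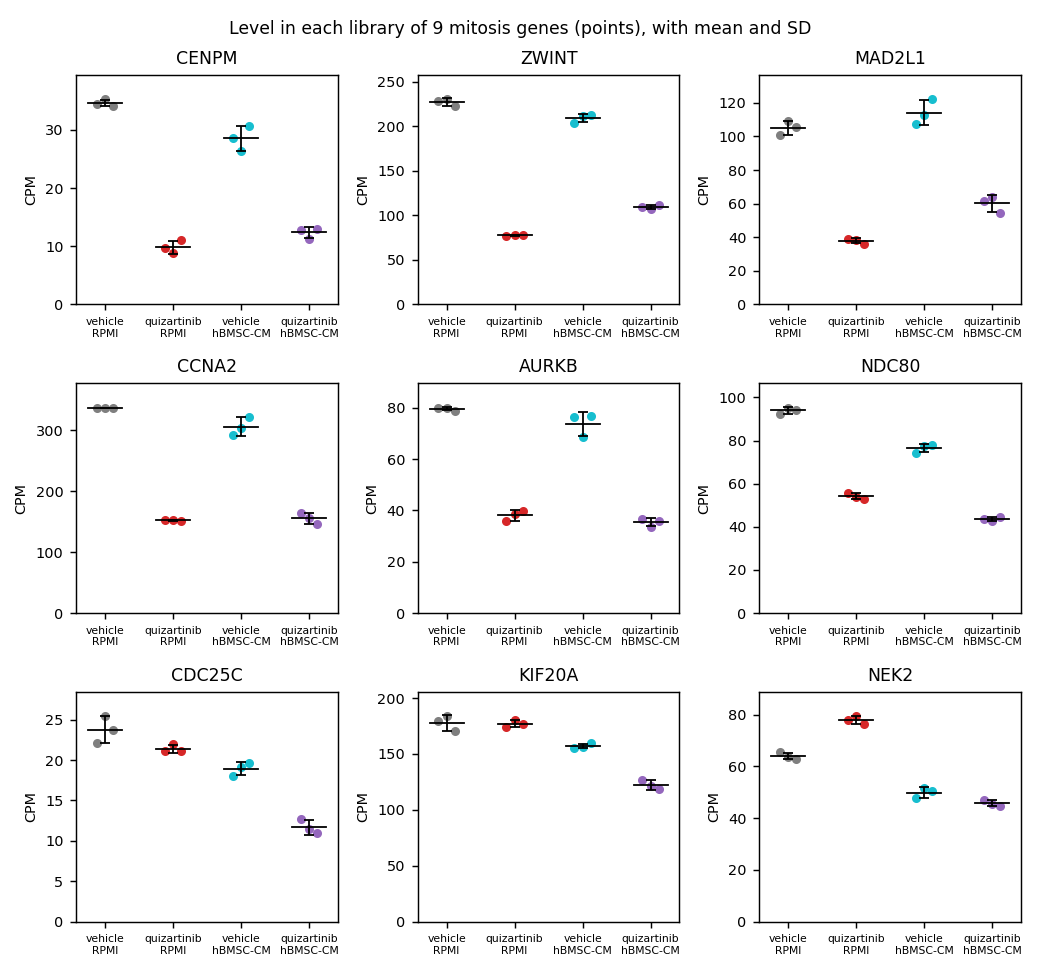
CPM (vertical axes, from 0) of 9 mitosis genes in each of the 12 libraries (points), by group, with the group mean as a line and the SD as a bar (n = 3). CENPM, ZWINT and MAD2L1 are lowest with quizartinib in RPMI, CCNA2, AURKB and NDC80 fall in both media, and CDC25C, KIF20A and NEK2 are lowest with quizartinib in hBMSC-CM.

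The response to quizartinib spanned a narrower range in hBMSC-CM. Across the 60 genes the SD of the log2 fold changes was 0.448 in RPMI and 0.280 in hBMSC-CM, the 2 sets of values had r = 0.91, and a line through them had a slope of 0.57, as a description across genes, which are not independent. The log2 fold change was lower in hBMSC-CM for 44 of the 60 genes and higher for 16. Over all 12998 genes it was lower in hBMSC-CM for 6352 and higher for 6646. A list of 40 G1/S and replication genes served for comparison, and all 40 fell in both media, but with a median of -1.89 in RPMI and -0.93 in hBMSC-CM. None of the 40 had a more negative log2 fold change in hBMSC-CM. CCNE2, a cyclin of the G1/S transition, had log2 fold changes of -3.82 in RPMI and -1.50 in hBMSC-CM, and MCM10, a replication initiation factor, of -3.71 and -1.50.

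**Figure D4:**
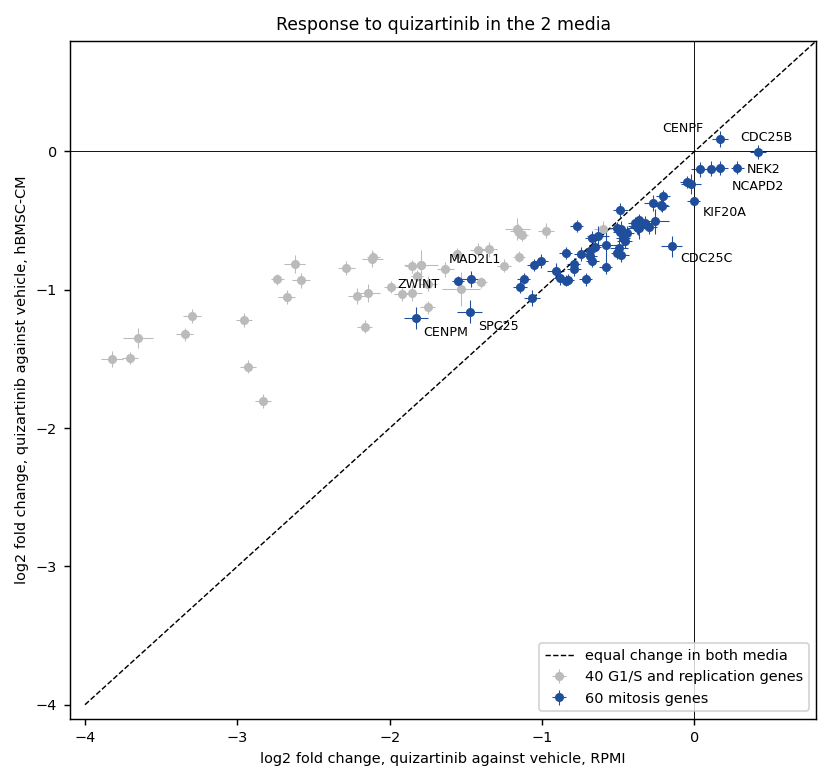
Log2 fold change with quizartinib in RPMI (horizontal axis) against that in hBMSC-CM (vertical axis) for the 60 mitosis genes (blue) and 40 G1/S and replication genes (grey), with SE bars, and the dashed line marks equal change. All G1/S genes lie above the line, while 44 of the 60 mitosis genes lie below it, and CENPM, ZWINT, MAD2L1 and SPC25 lie above it.

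The 9 genes with a positive interaction were CENPM, ZWINT, MAD2L1, SPC25, SMC2, PLK4, SPC24, NCAPH and CCNA2. Of these, CENPM, ZWINT, MAD2L1, PLK4, NCAPH and SMC2 kept the call in all 19 alternatives at the same threshold, while CCNA2 lost it without any of 10 libraries, SPC25 without any of 8 and SPC24 without any of 3. All 9 fell in RPMI, with log2 fold changes of -0.77 or below, and 5 of them were higher in treated cells in hBMSC-CM than in those in RPMI, MAD2L1 by 0.67 ± 0.0623, ZWINT by 0.49 ± 0.0400, CENPM by 0.34 ± 0.0892, SMC2 by 0.13 ± 0.0439 and NCAPH by 0.11 ± 0.0418. The calls of SMC2 and NCAPH did not pass the test with upper-quartile scaling or without quizartinib in hBMSC-CM replicate 2, and that of NCAPH also with the DESeq2 Wald test, in a fit of only the groups compared, or without quizartinib in hBMSC-CM replicate 1 or quizartinib in RPMI replicate 3. The 18 genes with a negative interaction were led by CDC25C, CDC25B, NEK2, KIF20A and NCAPD2, and these 5 kept the call in all 19 alternatives. The other 13 lost it without the filter on low counts, which moved the median interaction of the 60 genes from -0.11 to -0.038.

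With quizartinib, the genes furthest below their RPMI level in hBMSC-CM were CDC25C (-0.86 ± 0.0750), NEK2 (-0.76 ± 0.0456), CDC25B (-0.68 ± 0.0520), ESPL1 (-0.54 ± 0.0467), KIF20A (-0.53 ± 0.0420) and CENPE (-0.53 ± 0.0523), all log2 differences. Of the 45 genes that were lower, 40 kept the call in all 20 alternatives. The 40 G1/S and replication genes had the opposite sign, with 39 higher in hBMSC-CM, none lower and a median of 0.92. With vehicle the medium made smaller differences, and the genes furthest below their RPMI level were NEK2 (-0.36 ± 0.0459), KIFC1 (-0.34 ± 0.0399), FOXM1 (-0.34 ± 0.0549), ESPL1 (-0.33 ± 0.0435) and DLGAP5 (-0.33 ± 0.0451). Of the 40 genes that were lower, 28 kept the call in all 20 alternatives. The G1/S list had 5 genes higher, 5 lower and a median of -0.026. Its shares, 12.5% in each direction, were near those of all genes, 16.6% higher and 15.5% lower. MAD2L1 was the only mitosis gene whose mean with vehicle was higher in hBMSC-CM (log2 fold change 0.12 ± 0.0562, edgeR adjusted p = 0.112).

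**Figure D5:**
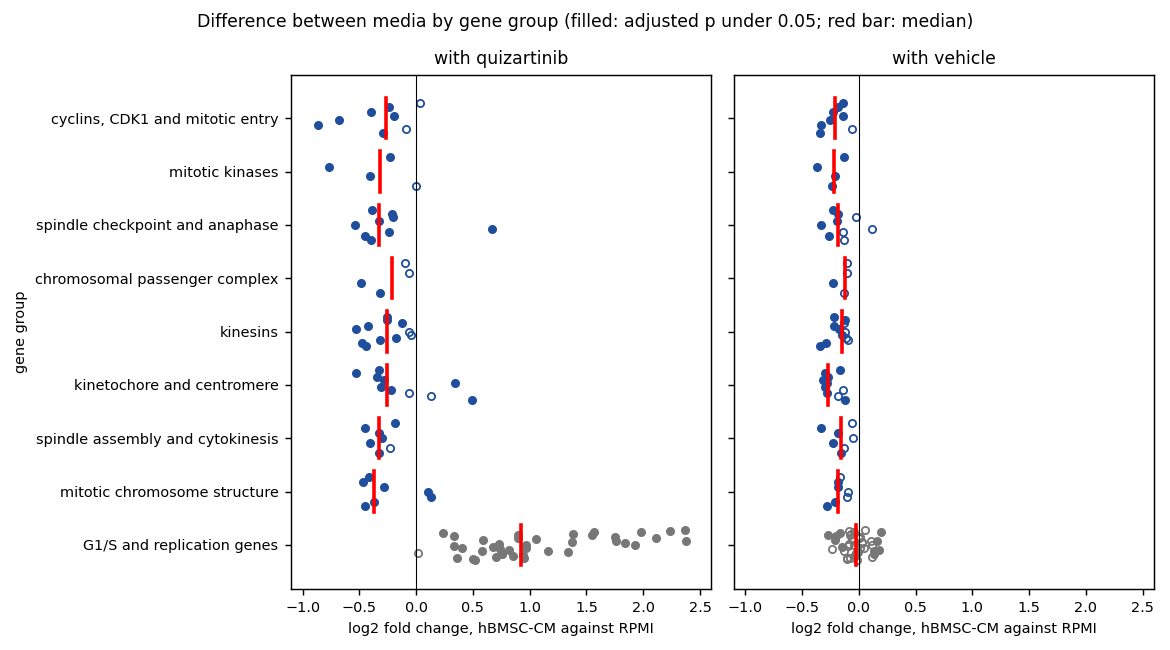
Log2 fold change of hBMSC-CM against RPMI (horizontal axes) for each mitosis gene by role and for 40 G1/S and replication genes (grey), with quizartinib (left) and with vehicle (right). Filled points passed the test at an adjusted p under 0.05 and red bars are medians. With quizartinib the medians of the 8 roles lie between -0.38 and -0.21 and that of the G1/S genes at 0.92.

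Other genes of the same pathways, given as lists, were not all like the 60. Over all genes, 39.2% fell and 40.1% rose with quizartinib in RPMI. In treated cells 34.3% of all genes were lower and 35.5% higher in hBMSC-CM than in RPMI. Among 28 other kinetochore subunits, 25 fell and 2 rose with quizartinib in RPMI (median -0.87), and in treated cells 14 were higher and 9 lower in hBMSC-CM (median 0.092). CENPK, an inner kinetochore subunit, had log2 values of -1.71 with quizartinib in RPMI and 0.58 between media with quizartinib. Among 23 other spindle and cytokinesis genes, 16 fell and 3 rose in RPMI (median -0.48), and 15 were lower and 5 higher in hBMSC-CM with quizartinib (median -0.33). The 18 other genes of mitotic entry and checkpoint held 17 that fell and none that rose in RPMI (median -0.98), and 10 were higher and 5 lower in hBMSC-CM with quizartinib. The shares lower between media, 32.1% of the kinetochore subunits and 27.8% of these 18 genes, did not exceed that of all genes. PKMYT1, a kinase that inhibits CDK1, had -2.72 in RPMI and 1.03 between media, and TRIP13, which remodels MAD2, had -2.35 and 1.13.

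The 16 subunits and partners of the anaphase-promoting complex moved less, with 9 lower and 3 higher in RPMI (median -0.18) and 5 lower and 5 higher between media with quizartinib. The shares of these genes that passed the test between media, 31.25% in each direction, were near those of all genes, 34.3% lower and 35.5% higher. The ubiquitin-conjugating enzyme UBE2S was the exception in size, with -1.19 in RPMI and -1.12 in hBMSC-CM. Among 10 cohesin genes, 6 fell and 2 rose in RPMI, and 6 fell and 1 rose in hBMSC-CM. The shares over all genes were 39.2% lower and 40.1% higher in RPMI and 33.7% and 33.4% in hBMSC-CM, and the 8 of 10 cohesin genes that passed the test in RPMI were a share near the 79.3% of all genes. Of 18 DREAM, MuvB and E2F regulators, 14 fell in RPMI (median -1.02) and 14 in hBMSC-CM (median -0.59), and 10 were higher and 3 lower in hBMSC-CM with quizartinib. MYBL2, the activating partner of MuvB, had log2 fold changes of -1.70 in RPMI and -1.36 in hBMSC-CM, and E2F1, an activator of G1/S genes, -2.88 and -0.96.

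Median responses were close in mitosis genes with and without the CHR motif. The 37 genes with TTTGAA in the promoter had a median log2 fold change of -0.49 with quizartinib in RPMI and the 15 without it -0.51, and the medians in hBMSC-CM were -0.65 and -0.63. Between media with quizartinib the medians were -0.31 with the motif and -0.29 without it. The 17 genes with an E2F type site had a median of -0.38 in RPMI against -0.51 for the 35 without. For the CCAAT box the medians in RPMI were -0.48 in the 38 genes with it and -0.64 in the 14 without. In hBMSC-CM they were -0.61 and -0.69. No test of a link between motif and response was made.

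Per length of exon (GENCODE v44, GRCh38), TOP2A was the most abundant of the 60 with vehicle in RPMI, at 163 ± 2.86 RPKM (CPM per kilobase of exon; SD, n = 3), followed by CCNA2 at 122.6 ± 0.103, TPX2 at 96.3 ± 2.30 and ZWINT at 95.6 ± 1.68. TPX2 and ZWINT did not differ beyond their spread. The length used for a gene joined the exons of all its annotated transcripts, so these levels and their order depend on the annotation. PRC1 was the lowest at 1.69 ± 0.149 RPKM, and 34.3% of its annotated exon bases are shared with the antisense gene PRC1-AS1. In all, 16 of the 60 share exon bases with another gene, 7 of them over 10% of their length, namely PRC1, NCAPG (33.7%, with LCORL), SMC4 (22.0%, mostly with TRIM59), FOXM1 (15.9%, with ITFG2), NUSAP1 (15.2%, mostly with OIP5), KIFC1 (14.0%, with RPL12P1) and BUB1B (10.2%, mostly with PAK6). The strand setting of the counting step is not given in the sources used here, so the levels of these genes are uncertain to that extent. KIF4B, an intronless copy of KIF4A, had 0.736 to 1.90 CPM, against 62.4 ± 3.69 CPM or more for KIF4A.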

How the data were processed

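RNA-seq of 12 MOLM-13 libraries was used, 3 biological replicates in each of 4 groups by the study's account, and p-values measure the spread between these libraries. The authors deposited raw counts per gene name: per the study's methods, reads were trimmed with BBDuk, aligned with STAR 2.6.0a to hg38 with Ensembl annotation, and Ensembl identifiers that mapped to the same name were summed. Genes with a mean count under 1 or a mean CPM under 1 were removed, which left 12998 of 57353. A single model with 4 group means was fitted in edgeR 4.0.16 (TMM scaling, quasi-likelihood F test, 8 residual degrees of freedom, two-sided), with Benjamini-Hochberg adjustment over all 12998 genes and a threshold of 0.05. Standard errors were taken from the log2 fold change and its F. The study used limma, which was an alternative here. The procedure was tested on simulated counts, with 200 of 12998 genes changed in 1 comparison. It recovered 98 of 100 genes changed 2-fold and 77 of 100 genes with a smaller change, with 7 false calls. Far fewer genes changed in the simulation than passed the test in the data, and the interaction was not simulated. The simulated counts had the same dispersion for every gene and equal numbers of rises and falls. Changes below the smaller of these sizes were not simulated. Alternatives were DESeq2 1.42.0 size factors and Wald test, upper-quartile scaling, library size only, limma-voom (limma 3.58.1), no filter on low counts, only the groups compared, a replicate block, a threshold of 0.01, and leaving out each library. The members and gene lists were chosen with earlier results of these data known. Per-library values are given for the gene of each role with the largest change in RPMI, the 3 largest and 3 smallest interactions, genes with opposite signs in the 2 media and genes not passing in RPMI. Promoters and motifs came from RefSeq (GRCh38.p14) and exon lengths from GENCODE v44. Replicate pairs within a group differed by 2.66 to 10.5 in chi-square per gene, so no library was counted as a repeat.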

Additional observations from a re-analysis of the deposited data

Results flagged for a closer look

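The response to quizartinib differed between hBMSC-CM and RPMI for 27 of the 60 mitosis genes, by the test of the difference itself (the drug by medium interaction, edgeR quasi-likelihood test, adjusted p under 0.05, against 45.2% of all genes, a share near that of the 60). The response was less negative in hBMSC-CM, with a log2 difference of 0.62 for CENPM, 0.61 for ZWINT, 0.55 for MAD2L1, 0.32 for SPC25, 0.24 for SMC2, 0.23 for PLK4, 0.22 for SPC24, 0.20 for NCAPH and 0.17 for CCNA2. The log2 response was lower in hBMSC-CM, with a log2 difference of -0.54 for CDC25C, -0.42 for CDC25B, -0.40 for NEK2, -0.36 for KIF20A, -0.29 for NCAPD2, -0.27 for UBE2C, -0.26 for CDCA8, -0.25 for HMMR, -0.23 for CENPE, -0.23 for KIF2C, -0.21 for ESPL1, -0.19 for TTK, -0.19 for INCENP, -0.18 for KIF4A, -0.18 for BUB3, -0.17 for TPX2, -0.17 for CCNB2 and -0.17 for TOP2A. Among these genes, CDC25B, NEK2 and NCAPD2 rose with quizartinib in RPMI, and CDC25B did not pass the test in hBMSC-CM. Of the 27, 17 passed the test in all 12 fits that left out a library. In all 19 alternatives at the same threshold, 6 of the 9 positive and 5 of the 18 negative calls were kept. The other 13 negative calls were lost without the filter on low counts. The lowest count of positive calls in those fits was 6 and of negative calls 14.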

How the results depend on the processing

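Across 20 alternatives no median over the 60 genes changed direction. Of 300 single values (60 genes in 5 comparisons), 24 turned sign in some alternative, none of them past the threshold as reported, and of these only KIF20A in RPMI passed with the other sign, at 0.096 with upper-quartile scaling (adjusted p = 0.0376). Upper-quartile scaling gave 7 genes higher with quizartinib in RPMI and a median of -0.39, 1 higher in hBMSC-CM and a median of -0.54, and 3 higher between media with quizartinib. Scaling by library size only gave medians of -0.40 in RPMI and -0.52 in hBMSC-CM, with 1 gene higher there. These scalings moved the median of all genes by 0.10 in RPMI (upper quartile) and 0.10 in hBMSC-CM (library size), and moved the share of higher calls among all genes in hBMSC-CM from 49.8% to 60.03% and 62.8%. Without the filter on low counts, 2 genes were higher in RPMI with a median of -0.59, the median between media with quizartinib was -0.22, and the interaction had 6 negative and 9 positive calls, in place of 18 and 9, with a median of -0.038, where the median of all genes moved by -0.10 in RPMI and the share of higher interaction calls from 57.6% to 70.6%. The threshold of 0.01 gave 3 higher between media with quizartinib and 9 negative interactions. Between media with vehicle, 52 genes were lower with upper-quartile scaling and 52 with library size only, in place of 40. The threshold of 0.01 gave 30 there. The cause of these shifts was not tested.

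When each library was left out in turn, genes lower with quizartinib numbered 49 to 51 in RPMI and 54 to 58 in hBMSC-CM, and genes higher 3 to 5 and 0 to 1 (1 without vehicle in hBMSC-CM replicate 1). Between media with quizartinib 44 to 45 were lower and 3 to 5 higher (3 without quizartinib in hBMSC-CM replicate 2), and with vehicle 33 to 44 were lower and 0 to 1 higher (1 without vehicle in hBMSC-CM replicate 1). Interactions were 14 to 21 negative and 6 to 9 positive. The medians ranged from -0.51 to -0.48 in RPMI, -0.64 to -0.61 in hBMSC-CM, -0.31 to -0.28 and -0.19 to -0.16 between media with quizartinib and with vehicle, and -0.14 to -0.088 for the interaction. In all, 3433 of 3600 calls of single genes in these fits were as reported.

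Same replicate numbers did not pair the libraries: their deviations from the group means correlated at -0.34 to 0.17 over 18 pairs, and 0 of 12 libraries correlated best with its own number. With the replicate number as a block, 50 genes were lower and 5 higher in RPMI, 58 and 0 in hBMSC-CM, 44 and 5 between media with quizartinib, and 40 and 0 with vehicle, and the interaction had 17 negative and 8 positive calls, so 4 of 300 calls changed. The limits are 3 libraries a group, a single cell line and time, and levels relative to the total RNA of each library.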
